A study of Brassica napus with 12 samples.

Results

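Strigolactones are carotenoid-derived hormones that restrain the outgrowth of axillary buds and so help to set how many branches a shoot carries. D27, a plastid carotenoid isomerase, starts their synthesis. The carotenoid cleavage dioxygenases CCD7 and CCD8 then form carlactone, which the cytochrome P450 CYP711A1, known in Arabidopsis as MAX1, oxidises. The hormone is perceived by D14, an alpha/beta hydrolase that binds the F-box protein MAX2, and the complex marks the repressors SMXL6, SMXL7 and SMXL8 for breakdown. All copies of these genes were followed here in growing shoot tips of rapeseed (Brassica napus), whose genome joins an A and a C subgenome, so that most genes have related copies on both. Members were the genes whose best protein match carried one of the 9 names and came from a mustard-family species. The rule found 25 of the 100919 genes in the count table, with 9 copies of D27, 6 of MAX2, 3 of D14, 3 of CCD8, 2 of CCD7 and 2 of CYP711A1. Of these, 11 lay on A chromosomes, 11 on C chromosomes and 3 on unplaced scaffolds. No gene carried the name SMXL6, SMXL7 or SMXL8, so the repressors were not analysed here. Such a name gives the gene family and need not give the exact Arabidopsis counterpart.

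Whole apical meristems were taken when flower primordia were beginning to form, from untreated plants grown at an experimental station, and total RNA was sequenced. SX3 is a natural mutant line and ZS11 is the line labelled wild type. Slike and Zlike are second-backcross (BC2) plants from these lines that contrast in inflorescence and plant form, with the genotype labels mutant for Slike and WT for Zlike. Each of the 4 groups had 3 libraries, and the labels do not say whether these came from separate plants. The p-values therefore cover only the library-to-library spread, which may be technical. The labels give the same tissue, stage and growing site for all 4 groups. Markers of floral organs and anthers nevertheless differed between the groups, as given below, so an equal stage cannot be taken for granted. The labels do not say which parent was the recurrent one in the backcross or which stretches of the genome the plants took from SX3.

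Total counts per library lay between 13445924 and 17778731. The meristem markers STM and KNAT1 were high in every group, with STM summed over its copies at 146 to 149 CPM in SX3 against 265 to 274 CPM in ZS11, and at 116 to 123 CPM in Slike against 141 to 147 CPM in Zlike. CPM stands for the read count divided by the library size after TMM scaling over all 12 libraries, in the usual unit. KNAT1 ran the other way between the lines, at 127 to 134 CPM in SX3 against 88.6 to 91.2 CPM in ZS11, and lay at 64.5 to 68.6 CPM in Slike against 73.6 to 75.6 CPM in Zlike. WUS, which marks the stem cell organiser, was at 2.55 to 3.03 CPM in SX3 against 0.582 to 1.27 CPM in ZS11, and at 2.196 to 3.36 CPM in Slike against 0.510 to 1.72 CPM in Zlike. The groups also differed in markers of other tissues. Summed over 27 copies, floral organ markers reached 231 to 236 CPM in SX3 against 43.3 to 44.9 CPM in ZS11, and 427 to 435 CPM in Slike against 112 to 116 CPM in Zlike. Summed over 20 copies, green tissue markers lay at 804 to 828 CPM in SX3 against 2600 to 2622 CPM in ZS11, and at 1559 to 1581 CPM in Slike against 1277 to 1344 CPM in Zlike. Anther and tapetum markers, 8 copies in all, reached 22.5 to 23.0 CPM in Slike against at most 0.127 CPM in Zlike, and were at most 0.144 CPM in SX3 against at most 0.465 CPM in ZS11. Vascular markers, summed over 68 copies, lay at 267 to 272 CPM in SX3 against 299 to 314 CPM in ZS11, and at 228 to 233 CPM in Slike against 256 to 258 CPM in Zlike. Between the lines, only APL among them was lower in SX3, at 149.8 to 151 CPM against 219 to 232 CPM in ZS11. CESA4, CESA7, CESA8, SUC2, XCP1 and XCP2 were each higher in SX3 with no overlap. CESA4 lay at 9.11 to 11.3 CPM in SX3 against 4.12 to 5.30 CPM in ZS11. XCP2 lay at 58.1 to 58.5 CPM in SX3 against 43.8 to 45.8 CPM in ZS11. In Slike against Zlike, APL was again lower, CESA7, CESA8, SUC2 and XCP1 were higher, and CESA4 and XCP2 overlapped. The part of these differences in the results on strigolactone genes was not tested, and in a whole meristem fewer cells of a type and less RNA per cell cannot be told apart.

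In SX3 against ZS11, 7 of the 10 copies with enough counts for a test were lower and 0 were higher. The receptor copy D14 on C05, the D27 copy on A09 and a short MAX2 copy on A05 fell the most. Over all genes tested in this comparison, 69.3% were called (adjusted p under 0.05, edgeR with Benjamini-Hochberg adjustment) with 33.4% higher and 35.9% lower, so a call as such is common here and the count of 7 lies near that background, while the direction was the same for all 7. The median log2 fold change was -0.56 over the 10 copies and -0.01 over all 50035 genes tested. In Slike against Zlike, 5 of the 10 copies were called, with both CYP711A1 copies higher and 3 MAX2 copies lower, against 27.2% called over all genes, of which 13.8% were higher and 13.4% lower. Here the medians were -0.17 for the copies and 0.00 for all 49526 genes tested. Of the 3 copies that fell the most in SX3, MAX2 on A05 was also lower in Slike, while D14 on C05 and D27 on A09 did not pass the test between Slike and Zlike. DESeq2 called fewer copies, 4 between SX3 and ZS11, without D27 on A03, CYP711A1 on A03 and MAX2 BnaC04G0037300ZS. Between Slike and Zlike it called 1 copy, the MAX2 copy on A05. There DESeq2 also called fewer genes in all, 8272 of 49526, against 13447 with edgeR. The DESeq2 share of all genes between SX3 and ZS11 is not given here, so its 4 calls have no background beside them.

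**Figure D1:**
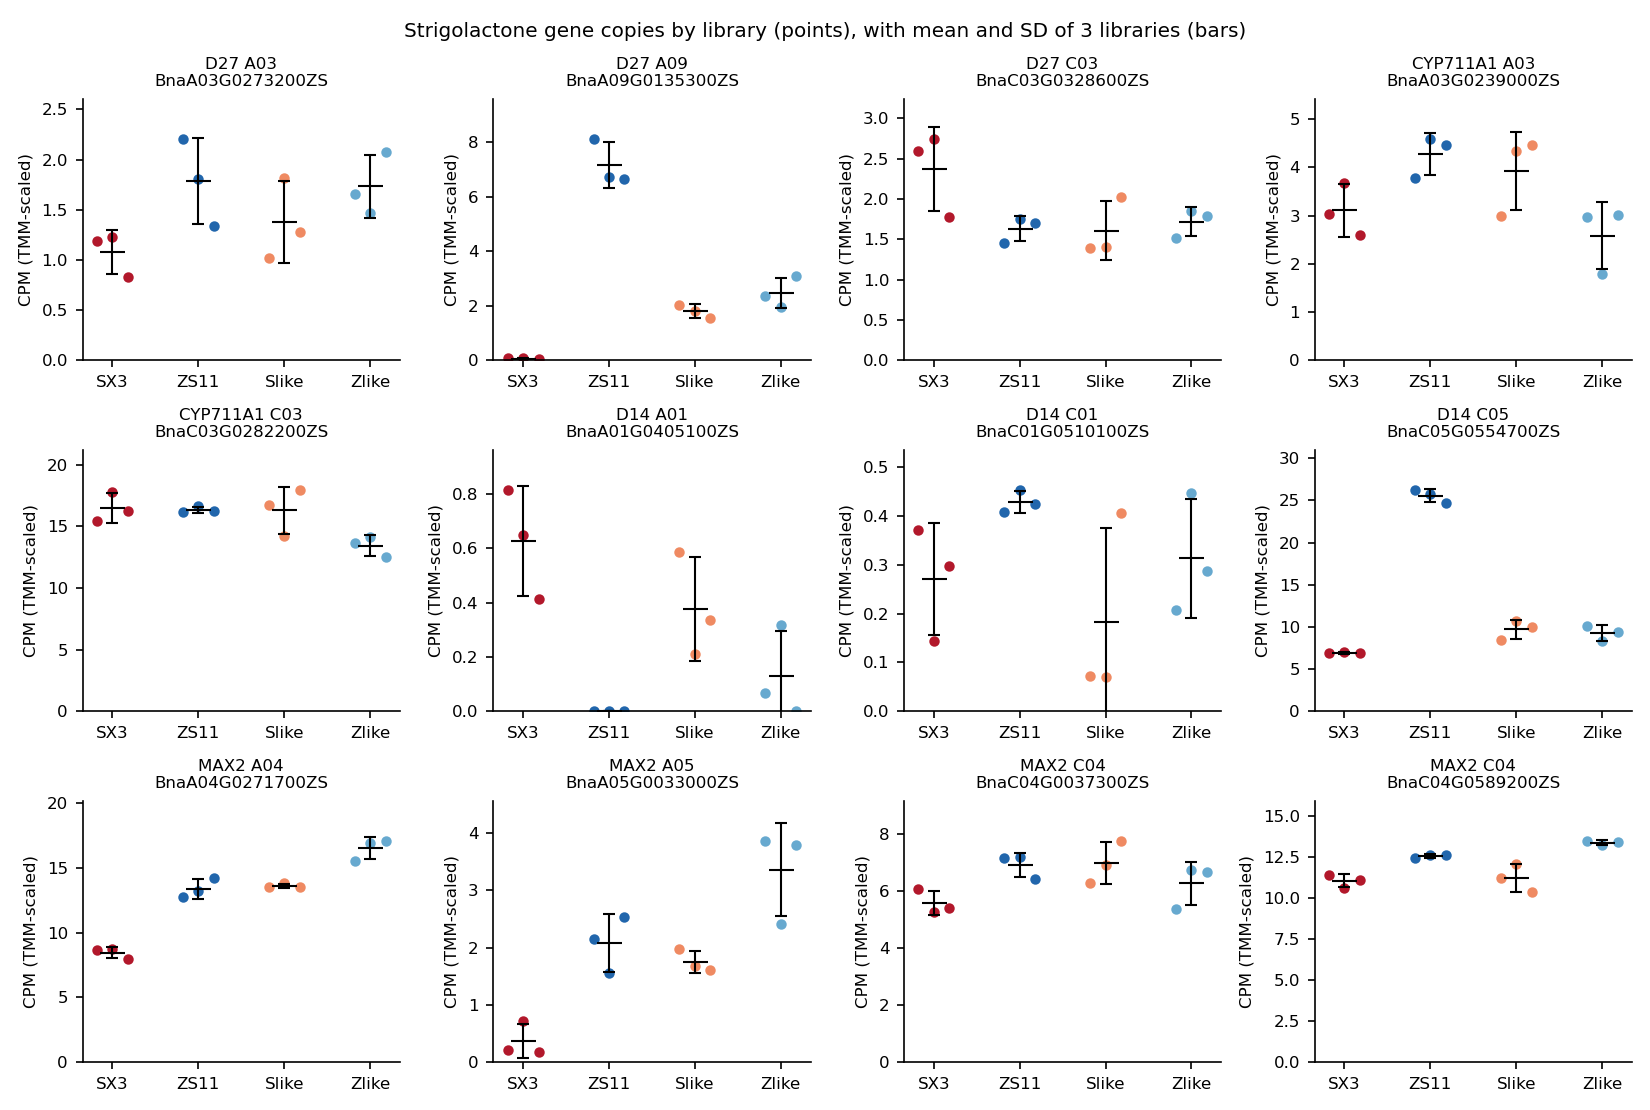
CPM of the 10 tested strigolactone gene copies and of D14 on A01 and C01 (vertical axes, TMM-scaled CPM, from 0) in SX3, ZS11, Slike and Zlike; points are libraries, bars the mean and SD of 3 libraries. D14 on C05 stood at 6.92 CPM in SX3 against 25.6 CPM in ZS11, with Slike and Zlike near 9.71 and 9.30 CPM.

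**Figure D2:**
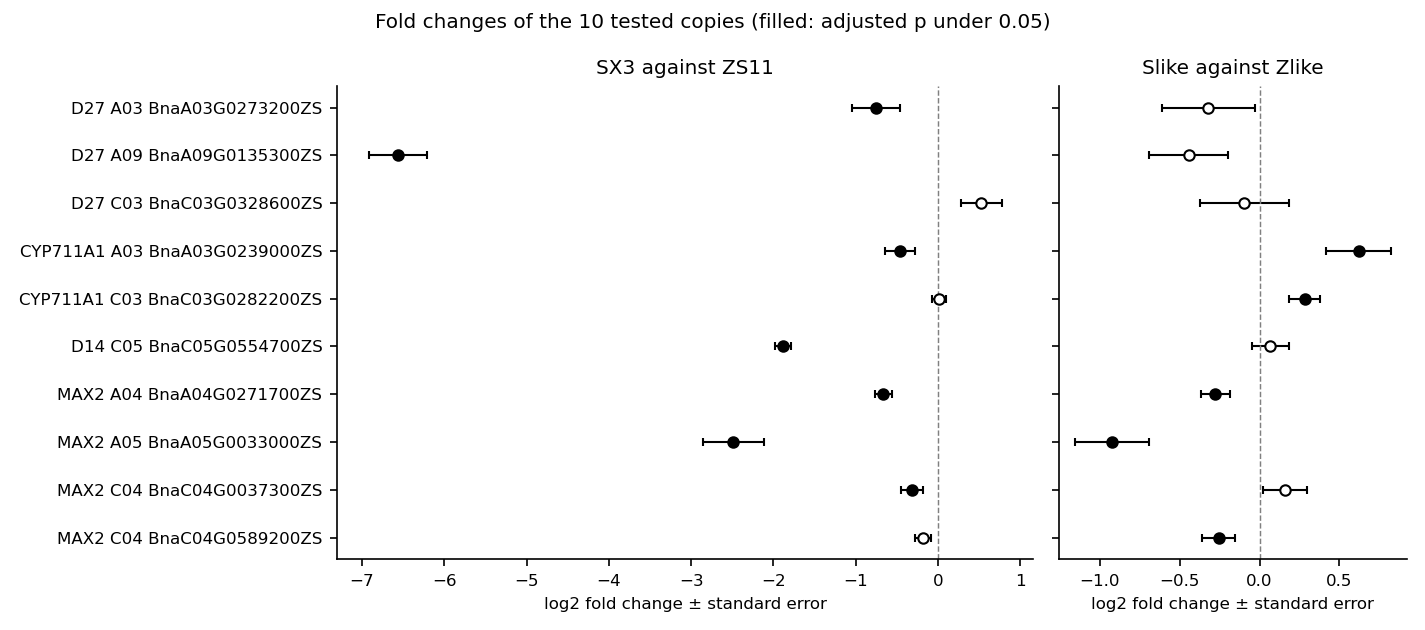
Log2 fold change (horizontal axes, with the standard error as bars) of each tested copy in SX3 against ZS11 and in Slike against Zlike; filled points passed an adjusted p of 0.05. The filled points of SX3 against ZS11 all lie left of 0, and those of Slike against Zlike lie right of 0 for both CYP711A1 copies and left of 0 for 3 MAX2 copies.

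The synthesis genes were led by D27, of which 3 of 9 copies could be tested. The copy on A09 (BnaA09G0135300ZS, A09 from 8193173 to 8194178, plus strand) was nearly silent in SX3, where each library held 1 count, at 0.0741, 0.0722 and 0.0592 CPM, against 8.13, 6.73 and 6.65 CPM in the ZS11 libraries. The ZS11 libraries lay far above those of SX3 with no overlap, and the summed counts of 3 in SX3 against 338 in ZS11 gave a 104-fold lower level in SX3, with a 95% counting interval of 35.3 to 507 (edgeR adjusted p = 1.17e-37). Both backcross classes lay between the parents, with 2.05, 1.82 and 1.55 CPM in Slike and 2.35, 1.97 and 3.08 CPM in Zlike. Slike and Zlike overlapped and did not differ by the test (log2 -0.44, SE 0.25, edgeR adjusted p = 0.19). Zlike was lower than ZS11 (log2 -1.55, SE 0.18, edgeR adjusted p = 4.74e-13).

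The 2 other tested D27 copies moved less. D27 on A03 (BnaA03G0273200ZS, from 14531887 to 14533393, minus strand) had 1.185, 1.23 and 0.829 CPM in SX3 against 2.21, 1.81 and 1.34 CPM in ZS11. Every SX3 library was below every ZS11 library, and the difference passed the test (log2 -0.76, SE 0.29, edgeR adjusted p = 0.0169). It was no longer called without SX3 replicate 3 (adjusted p = 0.111) or without ZS11 replicate 1 (0.130). D27 on C03 (BnaC03G0328600ZS, from 22390458 to 22392106, minus strand) went the other way, with 2.59, 2.74 and 1.78 CPM in SX3 against 1.45, 1.75 and 1.70 CPM in ZS11. These ranges did not overlap, yet the difference missed the threshold (log2 0.52, SE 0.25, edgeR adjusted p = 0.0534) and passed it without SX3 replicate 3 (log2 0.71, adjusted p = 0.0163). Neither copy differed between Slike and Zlike by the test, at 1.38 ± 0.406 and 1.73 ± 0.314 CPM for the A03 copy and 1.61 ± 0.363 and 1.72 ± 0.176 CPM for the C03 copy (SD, n = 3 each).

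The makeup of the D27 pool also differed between the lines. Counts of D27 on A chromosomes made up 33.7% ± 2.71 of all D27 counts on chromosomes in SX3 against 82.7% ± 3.46 in ZS11, and 65.0% ± 7.98 in Slike against 69.0% ± 4.86 in Zlike (SD, n = 3 each). The lowest ZS11 library, at 79.6%, stood above the highest SX3 library, at 36.7%. With all 9 copies summed, D27 stood at 3.70 ± 0.688 CPM in SX3 against 10.9 ± 0.969 CPM in ZS11 (log2 -1.56, SE 0.14, edgeR adjusted p = 2.36e-20). The sums in Slike and Zlike were 4.90 ± 0.318 and 6.15 ± 1.13 CPM (log2 -0.32, SE 0.15, edgeR adjusted p = 0.113). A further gene named D27 by a rice protein, and therefore no member, lay on C09 (BnaC09G0144400ZS) and had 1.79 ± 0.675 CPM in SX3 against 11.7 ± 1.25 CPM in ZS11 (log2 -2.67, SE 0.16, edgeR adjusted p = 6.85e-33).

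CCD7 and CCD8, the cleavage enzymes that turn the D27 product into carlactone, were close to absent. The CCD7 copies on A04 (BnaA04G0284600ZS) and C04 (BnaC04G0602800ZS) had 0 counts in all 12 libraries, which allows up to 3 counts per library, or 0.169 to 0.223 CPM depending on depth. For CCD8, the copies BnaA01G0050500ZS and BnaC01G0057500ZS were also at 0, and BnaC01G0059200ZS had 3 counts in all, 1 in SX3 and 2 in Zlike. These floors cover counting error only. No difference between groups could be seen in either gene at this depth.

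CYP711A1, the oxidase that acts on carlactone, was well expressed from its C copy. The copy on C03 (BnaC03G0282200ZS, from 18058463 to 18061055, plus strand) had 15.4, 17.8 and 16.2 CPM in SX3 against 16.1, 16.6 and 16.3 CPM in ZS11. SX3 and ZS11 overlapped (log2 0.01, SE 0.09, edgeR adjusted p = 0.914). In the backcross it had 16.8, 14.2 and 17.95 CPM in Slike against 13.6, 14.1 and 12.5 CPM in Zlike. Each Slike library exceeded each Zlike library, the closest pair by a narrow margin, and the copy was higher in Slike (log2 0.28, SE 0.09, edgeR adjusted p = 0.0166). That call was lost without Slike replicate 1 (0.06), Slike replicate 3 (0.179) or Zlike replicate 3 (0.0939).

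The CYP711A1 copy on A03 (BnaA03G0239000ZS, from 12496975 to 12499540, plus strand) had 3.04, 3.68 and 2.61 CPM in SX3 against 3.78, 4.59 and 4.45 CPM in ZS11. It was lower in SX3 (log2 -0.46, SE 0.18, edgeR adjusted p = 0.0193), but not without SX3 replicate 3 (0.136) or without ZS11 replicate 2 (0.0721). The backcross classes showed the opposite order, with 3.00, 4.34 and 4.45 CPM in Slike against 2.97, 1.78 and 3.01 CPM in Zlike (log2 0.62, SE 0.20, edgeR adjusted p = 0.0147). The lowest Slike library lay within the range of Zlike, and leaving out Slike replicate 2, Slike replicate 3 or Zlike replicate 2 ended the call (adjusted p = 0.0742, 0.104 and 0.186), with log2 0.40 in the last case. The change in the backcross minus the change between the lines was 1.08 on the log2 scale (SE 0.27, edgeR adjusted p = 0.000396).

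Summed over both copies, CYP711A1 stood at 19.6 ± 1.63 CPM in SX3 against 20.6 ± 0.652 CPM in ZS11 (log2 -0.06, SE 0.08, edgeR adjusted p = 0.511). It was higher in Slike, at 20.2 ± 1.97 CPM against 16.0 ± 0.547 CPM in Zlike (log2 0.34, SE 0.09, edgeR adjusted p = 0.000987). Zlike was the group that stood apart, since SX3, ZS11 and Slike had overlapping ranges. The A copy contributed 15.8% ± 1.76 of the counts in SX3 against 20.7% ± 1.52 in ZS11, and 19.5% ± 4.12 in Slike against 16.2% ± 4.39 in Zlike (SD, n = 3 each).

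D14, the receptor, came almost wholly from its copy on C05 (BnaC05G0554700ZS, from 56948641 to 56949444, plus strand). It had 6.89, 7.00 and 6.87 CPM in SX3 against 26.3, 25.7 and 24.7 CPM in ZS11. The SX3 libraries were nearly alike and far below ZS11, a 3.69-fold lower level (log2 -1.88, SE 0.09, edgeR adjusted p = 9.06e-41). Leaving out any 1 library kept the log2 fold change between -1.91 and -1.87.

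In the backcross, D14 on C05 was low in both classes, with 8.42, 10.7 and 9.99 CPM in Slike and 10.2, 8.35 and 9.39 CPM in Zlike. Slike and Zlike overlapped and did not differ by the test (log2 0.07, SE 0.12, edgeR adjusted p = 0.724), and the sign turned without Slike replicate 2 (log2 -0.01) or Zlike replicate 2 (log2 -0.01). Zlike, although labelled WT, was 2.76-fold below ZS11 with no overlap (log2 -1.46, SE 0.09, edgeR adjusted p = 6.53e-30), and Slike was above SX3 (log2 0.49, SE 0.12, edgeR adjusted p = 0.000191). The test of the backcross change minus the line change gave log2 1.95 (SE 0.15, edgeR adjusted p = 1.41e-23). The order of the 4 groups was ZS11, then Slike and Zlike together, then SX3.

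The other D14 copies were weak and were not tested, because they did not pass the filter on low counts. D14 on A01 (BnaA01G0405100ZS, from 36074614 to 36075417, minus strand) had 0.815, 0.650 and 0.415 CPM in SX3 against 0 counts in all 3 ZS11 libraries. SX3 was at least 3.34-fold higher, taken against 3 counts per ZS11 library, and with no filter the difference was called (edgeR adjusted p = 6.82e-07). Slike held 0.586, 0.210 and 0.337 CPM and Zlike 0.0691, 0.319 and 0 CPM, so the classes overlapped. D14 on C01 (BnaC01G0510100ZS, from 57412340 to 57413143, plus strand) had 0.270 CPM in SX3 against 0.428 CPM in ZS11, and 0.183 CPM in Slike against 0.313 CPM in Zlike, from 54 counts in all. With the 3 copies summed, D14 was at 7.82 ± 0.245 CPM in SX3 against 26.0 ± 0.799 CPM in ZS11 (log2 -1.72, SE 0.09, edgeR adjusted p = 2.71e-38), and at 10.3 ± 1.04 CPM in Slike against 9.74 ± 0.660 CPM in Zlike (log2 0.08, SE 0.11, edgeR adjusted p = 0.65). The A01 copy made up 7.96% ± 2.33 of D14 counts in SX3 against 0% in ZS11, and 3.84% ± 2.35 in Slike against 1.39% ± 1.86 in Zlike (SD, n = 3 each).

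MAX2, the F-box partner of the receptor, had 4 tested copies. MAX2 on A04 (BnaA04G0271700ZS, from 24110973 to 24113562, plus strand) had 8.66, 8.74 and 7.94 CPM in SX3 against 12.7, 13.2 and 14.2 CPM in ZS11 (log2 -0.66, SE 0.11, edgeR adjusted p = 2.03e-08). It had 13.5, 13.8 and 13.5 CPM in Slike against 15.5, 16.9 and 17.1 CPM in Zlike (log2 -0.28, SE 0.09, edgeR adjusted p = 0.0152). The mutant type lay below its counterpart in both comparisons with no overlap, by less in the backcross, and the test of that contrast gave log2 0.39 (SE 0.14, edgeR adjusted p = 0.0141). The backcross call was lost without Zlike replicate 2 (0.0542) or Zlike replicate 3 (0.0572), and the contrast without SX3 replicate 3 (0.0531).

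A copy on A05 (BnaA05G0033000ZS, from 1867822 to 1868607, plus strand) was also lower in the mutant type within each pair, at a low level. Its gene model holds only 261 bases, against 2207 to 2397 bases in the 3 long MAX2 models, so its counts come from a much shorter stretch. It had 0.222, 0.722 and 0.178 CPM in SX3 against 2.15, 1.55 and 2.55 CPM in ZS11, with no overlap (log2 -2.49, SE 0.37, edgeR adjusted p = 1.2e-09). Slike held 1.98, 1.68 and 1.62 CPM against 3.87, 2.42 and 3.80 CPM in Zlike, again with no overlap (log2 -0.93, SE 0.23, edgeR adjusted p = 0.00088). Only 16 counts stood behind the SX3 value, and without SX3 replicate 2 the log2 fold change between the lines was -3.34.

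Both tested MAX2 copies on C04 moved little. BnaC04G0037300ZS (from 3450675 to 3452881, minus strand) had 6.07, 5.27 and 5.39 CPM in SX3 against 7.14, 7.18 and 6.43 CPM in ZS11, and was lower in SX3 (log2 -0.32, SE 0.14, edgeR adjusted p = 0.0354). Leaving out SX3 replicate 2 (0.0971), SX3 replicate 3 (0.0978), ZS11 replicate 1 (0.0874) or ZS11 replicate 2 (0.0853) ended that call. It did not differ between Slike, at 7.00 ± 0.736 CPM, and Zlike, at 6.27 ± 0.766 CPM, by the test (SD, n = 3 each, edgeR adjusted p = 0.432). BnaC04G0589200ZS (from 69396773 to 69399485, plus strand) had 11.4, 10.6 and 11.1 CPM in SX3 against 12.4, 12.6 and 12.6 CPM in ZS11 (log2 -0.18, SE 0.10, edgeR adjusted p = 0.0985). It had 11.2, 12.0 and 10.3 CPM in Slike against 13.5, 13.2 and 13.4 CPM in Zlike (log2 -0.26, SE 0.10), where the edgeR adjusted p of 0.04998 lay at the threshold and was above it in 5 of 6 fits that left out 1 library (0.0785 to 0.225, each of them except the fit without Slike replicate 2).

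Summed over 6 copies, MAX2 stood at 25.4 ± 0.891 CPM in SX3 against 34.9 ± 0.746 CPM in ZS11 (log2 -0.44, SE 0.06, edgeR adjusted p = 5.29e-10). The sum was 33.6 ± 0.779 CPM in Slike against 39.5 ± 1.32 CPM in Zlike (log2 -0.23, SE 0.06, edgeR adjusted p = 0.0011). MAX2 was thus lower in the mutant type in both comparisons. Of the 4 names that could be tested as sums, 3 were lower in SX3, where 70.5% of all names and unnamed genes were called and 36.3% were lower. Another 34.1% were higher. In the backcross 1 was higher and 1 lower, against 27.6% called among all names and unnamed genes, 14% higher and 13.6% lower. Counts of MAX2 on A chromosomes made up 34.7% ± 2.31 in SX3 against 44.2% ± 2.27 in ZS11, and 45.8% ± 1.07 in Slike against 50.3% ± 0.984 in Zlike (SD, n = 3 each), with no overlap within either pair.

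**Figure D3:**
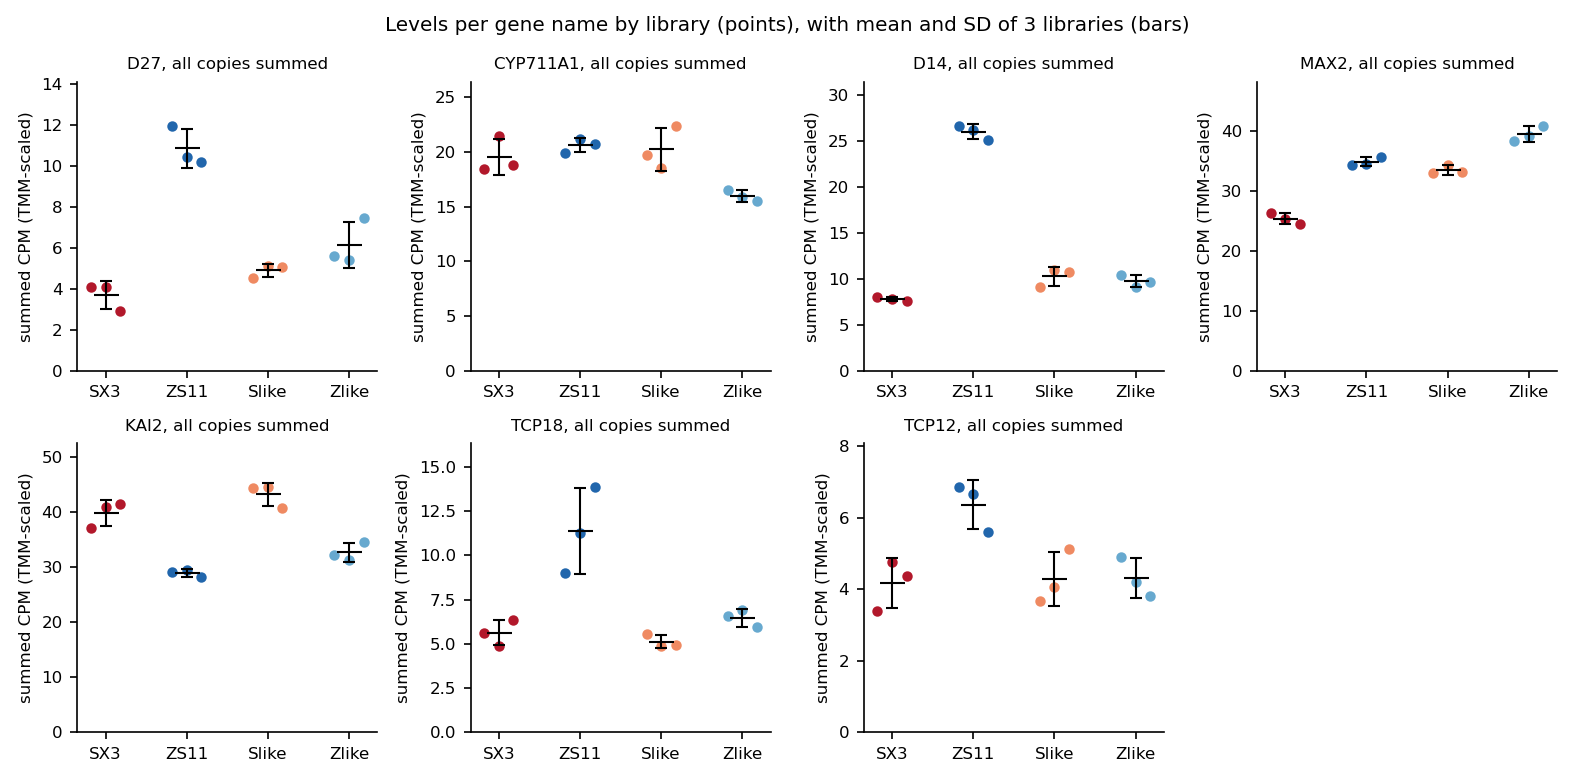
CPM summed over all copies of a name (vertical axes, TMM-scaled CPM, from 0) for D27, CYP711A1, D14, MAX2 and the related genes KAI2, TCP18 and TCP12; points are libraries, bars the mean and SD of 3 libraries. D14 and D27 were highest in ZS11, while MAX2 was lower in SX3 and Slike than in ZS11 and Zlike within each pair.

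The remaining members held almost no counts. Of the 15 copies under 1 CPM in every group, 7 were at 0 in all libraries and 8 held 1 to 54 counts in all. Besides the CCD7, CCD8 and D14 copies given above, these were 6 D27 copies and 2 short MAX2 models. D27 on C09 (BnaC09G0161100ZS) was the fullest of them, with 4 counts in SX3 against 10 in ZS11 and 5 in Slike against 7 in Zlike. BnaA09G0709800ZS had 3 counts, all in SX3, BnaA09G0688500ZS had 1 in SX3 and 1 in Zlike, and Bnascaffold0027G0017600ZS had 2 in ZS11 and 2 in Zlike. The D27 copies Bnascaffold0025G0008300ZS and Bnascaffold0370G0000400ZS and the MAX2 model BnaC04G0037400ZS were at 0, and the MAX2 model BnaA05G0034500ZS held 1 count, in Zlike.

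Levels of different genes can be set side by side as the authors' deposited FPKM, which divides by gene length and by the library's total. In SX3, CYP711A1 on C03 and D14 on C05 led with 8.80 ± 0.649 and 8.53 ± 0.0957 FPKM (SD, n = 3), which do not differ beyond their spread. In ZS11, D14 on C05 led with 30.8 ± 0.970 FPKM, followed by CYP711A1 on C03 with 8.54 ± 0.125 and D27 on A09 with 8.29 ± 0.969 FPKM, which overlap. The 3 long MAX2 copies held 2.50 to 4.56 FPKM in SX3 against 3.03 to 5.77 FPKM in ZS11. D14 on C05 also led the full-length copies in both backcross classes, at 12.3 ± 1.48 FPKM in Slike and 11.8 ± 1.17 FPKM in Zlike.

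The comparisons across generations share libraries with those above, so their values stand beside them and not as further evidence. In Zlike against ZS11, 6 of the 10 copies were called, with 2 higher and 4 lower, where 46% of all genes were called, 23.1% higher and 22.9% lower. The lower ones were D27 on A09 and D14 on C05, with the values above, and CYP711A1 on A03 (log2 -0.73, SE 0.19) and on C03 (log2 -0.28, SE 0.09). MAX2 on A04 (log2 0.31, SE 0.09) and on A05 (log2 0.69, SE 0.23) were higher. In Slike against SX3, 5 copies were called, all higher, where 53.7% of all genes were called, 29.8% higher and 23.9% lower. These were D27 on A09, whose SX3 level rests on 3 counts, D14 on C05, and MAX2 on A04 (BnaA04G0271700ZS, log2 0.69, SE 0.10), on A05 (BnaA05G0033000ZS, log2 2.25, SE 0.38) and BnaC04G0037300ZS (log2 0.33, SE 0.14). The direct test of the backcross change minus the line change called 6 copies, all positive, where 53.3% of all genes were called, 30.1% positive and 23.2% negative. Leaving out 1 library ended some of these calls. For MAX2 on A05 in Zlike against ZS11 these were ZS11 replicate 2, Zlike replicate 1 and Zlike replicate 3 (edgeR adjusted p = 0.0951, 0.0742 and 0.0627), and for CYP711A1 on C03 it was Zlike replicate 3 (0.0516). For MAX2 BnaC04G0037300ZS in Slike against SX3 the replicates 2 and 3 of both groups each ended the call (0.0601 to 0.186), as did RLE scaling (0.0504), upper-quartile scaling (0.0589) and DESeq2 (0.119). DESeq2 also ended the call of MAX2 on A05 in Zlike against ZS11 (0.0538).

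The genes beside each member were compared with it, using the 10 nearest tested genes on each side. D14 on A01 lay in a stretch where all 20 neighbours were higher in SX3 by at least 4-fold, 8 of them at 0 counts in ZS11, and where all 20 were also higher in Slike than in Zlike (median log2 1.90). D14 on C01 lay in a stretch of the opposite kind, with 19 of 20 neighbours lower in SX3 (median log2 -1.97, 10 of them at least 4-fold) and 18 lower in Slike (median log2 -0.45). The C05 copy of D14 had 12 neighbours lower and 2 higher in SX3, with a median log2 of -0.56 against its own -1.88. Around D27 on A09, 8 neighbours were lower and 3 higher in SX3, with a median log2 of -0.11 against -6.57 for the copy itself. D27 on A03 had 14 neighbours lower, 5 of them at least 4-fold, and 1 higher (median log2 -0.40 against its own -0.76). D27 on C03 had 2 lower and 9 higher (median log2 0.30 against its own 0.52). Over all genes tested, 35.9% were lower and 33.4% higher in SX3. The part of the neighbourhood in these values was not tested.

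**Figure D4:**
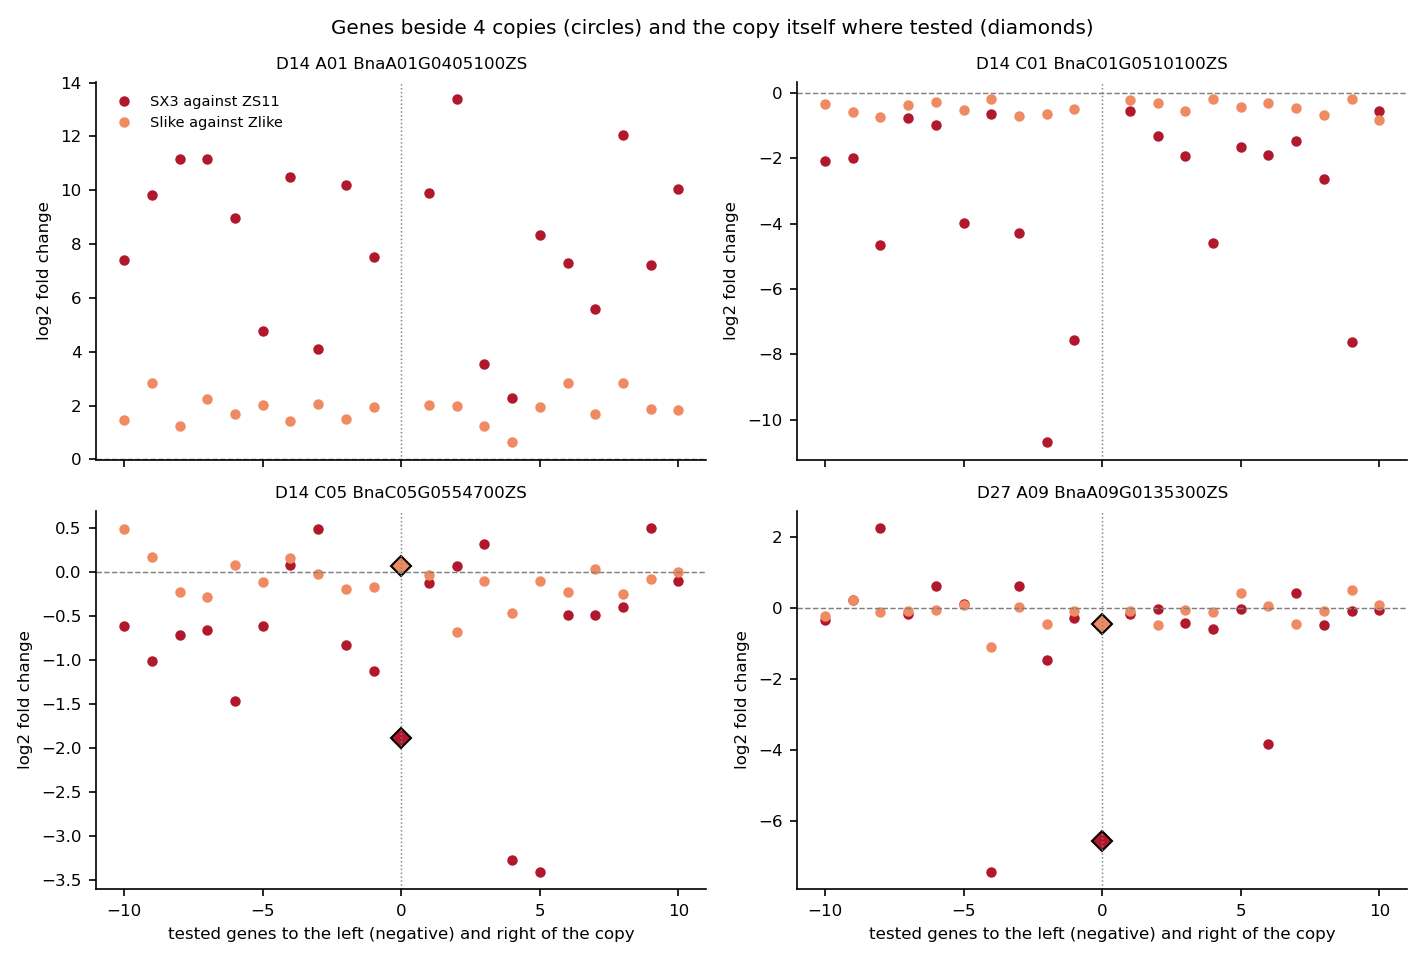
Log2 fold change (vertical axes) of the 10 tested genes on each side (horizontal axes, gene order) of D14 on A01, C01 and C05 and of D27 on A09, in SX3 against ZS11 and in Slike against Zlike; circles are neighbours, diamonds the copy itself where it was tested. All circles around D14 on A01 lie above 0 in both comparisons, and those around D14 on C01 below 0, while the D27 copy on A09 lies below most of its neighbours.

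Of the other MAX2 surroundings, those on A04 held 14 neighbours lower and 5 higher in SX3, with a median log2 of -1.58 and 8 at least 4-fold lower, against -0.66 for MAX2 itself. Around MAX2 on A05 the median was -0.35. The CYP711A1 copies had neighbour medians of -0.27 on A03 and 0.17 on C03 in SX3 against ZS11, and of -0.03 and -0.09 in Slike against Zlike, where both copies themselves were higher.

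Genes that act beside the pathway were grouped into 3 lists. Carotenoid supply and cleavage relatives, which make or cleave carotenoids, numbered 56 genes, of which 35 could be tested between SX3 and ZS11. There, 8 were higher and 17 lower, so that 71.4% were called against 69.3% of all genes (median log2 -0.16 against -0.01 over all genes). Phytoene synthase PSY1 on C02 (BnaC02G0078700ZS) was at 0 counts in SX3 against 7.28 ± 1.24 CPM in ZS11 (at least 35.7-fold lower, edgeR adjusted p = 2.18e-38), within a stretch where 19 of 20 neighbours were at least 4-fold lower. Phytoene desaturase PDS on C03 (BnaC03G0667600ZS) stood at 1.66 ± 0.215 CPM in SX3 against 17.6 ± 0.490 CPM in ZS11 (log2 -3.39, SE 0.14). The dioxygenase CCD1 fell on A04 (BnaA04G0000400ZS), to 31.3 ± 0.975 CPM in SX3 against 82.9 ± 3.01 CPM in ZS11, and on C04 (BnaC04G0254400ZS), to 31.6 ± 0.449 CPM in SX3 against 61.8 ± 3.38 CPM in ZS11.

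Between Slike and Zlike, 34 genes of that list could be tested, of which 7 were higher and 3 lower, so that 29.4% were called against 27.2% of all genes (median log2 0.07 against 0.00 over all genes). CCD4 on A08 (BnaA08G0113600ZS), which degrades carotenoids, was at 4.68 ± 0.560 CPM in Slike against 0.882 ± 0.268 CPM in Zlike (log2 2.39, SE 0.25, edgeR adjusted p = 5.09e-15). PSY1 on A10 was higher from 2 copies, BnaA10G0196500ZS at 10.6 ± 0.122 CPM in Slike against 6.30 ± 1.06 CPM in Zlike, and BnaA10G0142500ZS at 0.977 ± 0.213 CPM in Slike against 0.184 ± 0.145 CPM in Zlike. The PDS copy on C03 (BnaC03G0667600ZS) was lower here too, at 10.4 ± 0.289 CPM in Slike against 15.0 ± 2.19 CPM in Zlike (log2 -0.53, SE 0.10, edgeR adjusted p = 1.16e-05).

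KAI2, the karrikin receptor, is a relative of D14 that also works through MAX2, and it was the only gene found of the list on that branch. Between SX3 and ZS11, 1 of its 5 tested copies was higher and 2 lower, so that 60% were called against 69.3% of all genes (median log2 0.00 against -0.01). The copy on A08 (BnaA08G0186700ZS) had 18.8, 22.0 and 19.4 CPM in SX3 against 5.40, 6.21 and 4.81 CPM in ZS11, and 14.1, 14.3 and 14.4 CPM in Slike against 7.87, 8.86 and 9.32 CPM in Zlike. It was higher in the mutant type with no overlap in both comparisons (log2 1.87, SE 0.11, and log2 0.71, SE 0.11, edgeR adjusted p = 6.73e-35 and 1.64e-08). The lower copies in SX3 were those on C07 (BnaC07G0103600ZS), at 0.860 ± 0.138 CPM in SX3 against 2.75 ± 0.661 CPM in ZS11, and on A07 (BnaA07G0068500ZS), at 1.70 ± 0.752 CPM in SX3 against 3.13 ± 0.311 CPM in ZS11.

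In Slike against Zlike, 3 of 6 tested KAI2 copies were higher and 0 lower, where 27.2% of all genes were called and 13.8% were higher (median log2 0.35 against 0.00). These were the copies on A08, on A03 (BnaA03G0562500ZS, log2 0.59, SE 0.17) and on A07 (log2 0.51, SE 0.18). With DESeq2, 1 of 6 copies was called, where 8272 of 49526 genes were called in all. KAI2 on C03 (BnaC03G0687400ZS) missed the threshold in both comparisons (log2 0.01 and 0.19, edgeR adjusted p = 0.926 and 0.142). Summed over 8 copies, KAI2 stood at 39.8 ± 2.31 CPM in SX3 against 29.0 ± 0.648 CPM in ZS11 (log2 0.48, SE 0.06, edgeR adjusted p = 2.61e-12), and at 43.2 ± 2.12 CPM in Slike against 32.7 ± 1.76 CPM in Zlike (log2 0.41, SE 0.06, edgeR adjusted p = 1.3e-08). Its sum was thus higher in the mutant type in both comparisons. In SX3 against ZS11 the higher sum rests on the A08 copy. It was the only tested copy called higher there, while the copies on C07 and A07 were called lower.

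The list of shoot branching targets held 70 genes, among them the bud repressors TCP18 (BRC1 in Arabidopsis) and TCP12 and the co-repressors TPL and TPR1 to TPR4 that partner the SMXL proteins. Between SX3 and ZS11, 12 of 51 tested genes were higher and 17 lower, so that 56.9% were called against 69.3% of all genes (median log2 -0.01, as over all genes). The higher ones were all co-repressors (2 TPL, 1 TPR2, 3 TPR3 and 6 TPR4 copies). Other co-repressor copies were lower (1 TPL, 2 TPR1, 1 TPR3 and 2 TPR4). Outside the co-repressors no copy was called higher. Lower there were 2 of 4 tested TCP18, 2 of 3 TCP12, 1 of 3 TCP1, 2 of 2 ATHB-40, 3 of 3 ATHB-53, 1 of 2 MYB75 and 0 of 3 ATHB-21 copies. Over all genes 35.9% were lower. TCP18 on C01 (BnaC01G0404000ZS) was at 0 counts in SX3 against 2.56, 2.78 and 2.26 CPM in ZS11, at least 12.4-fold lower, and all 20 of its neighbours were at least 4-fold lower too. Slike held 0.951, 0.700 and 0.607 CPM of it against 1.24, 0.956 and 1.65 CPM in Zlike, a difference that missed the threshold (log2 -0.76, SE 0.36, edgeR adjusted p = 0.114). TCP18 on C03 (BnaC03G0429200ZS) was lower in SX3, at 1.91 ± 0.220 CPM against 3.84 ± 1.62 CPM in ZS11 (log2 -0.97, SE 0.22, edgeR adjusted p = 5.36e-05). Its ZS11 libraries spread from 2.38 to 5.59 CPM. TCP18 on A01 (BnaA01G0326500ZS) and A03 (BnaA03G0354000ZS) missed the threshold (log2 -0.33 and -0.56, edgeR adjusted p = 0.177 and 0.0737).

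Summed over 5 copies, TCP18 stood at 5.63 ± 0.714 CPM in SX3 against 11.4 ± 2.43 CPM in ZS11 (log2 -0.97, SE 0.13, edgeR adjusted p = 1.45e-11), and at 5.13 ± 0.375 CPM in Slike against 6.48 ± 0.502 CPM in Zlike (log2 -0.34, SE 0.15, edgeR adjusted p = 0.0713). TCP12 summed over 3 copies was at 4.19 ± 0.701 CPM in SX3 against 6.37 ± 0.683 CPM in ZS11 (log2 -0.59, SE 0.15, edgeR adjusted p = 0.000312), and at 4.28 ± 0.760 CPM in Slike against 4.30 ± 0.558 CPM in Zlike (log2 0.00, SE 0.17, edgeR adjusted p = 0.998). For both genes the ZS11 mean was the highest of the 4 groups, as for D14 and D27. Of the TCP18 copies, only those on C01 and C03 were called lower in SX3. The C01 copy was at 0 counts in SX3 against 2.53 CPM in ZS11, among neighbours that were all at least 4-fold lower. The C03 copy was at 1.91 CPM in SX3 against 3.84 CPM in ZS11, with ZS11 libraries from 2.38 to 5.59 CPM.

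Among the co-repressors, TPR4 on C02 (BnaC02G0032900ZS) held 0.122 ± 0.113 CPM in SX3 against 34.7 ± 1.17 CPM in ZS11, and 17 of its 20 neighbours were at least 4-fold lower. TPR3 on C04 (BnaC04G0356500ZS) had 0.347 ± 0.1002 CPM in SX3 against 14.7 ± 1.04 CPM in ZS11, and 10.1 ± 0.239 CPM in Slike against 15.8 ± 0.856 CPM in Zlike (log2 -0.65, SE 0.10). TPR4 on A02 (BnaA02G0029900ZS) was higher in the mutant type in both comparisons, at 65.6 ± 4.61 CPM in SX3 against 31.8 ± 2.39 CPM in ZS11 and 51.3 ± 2.525 CPM in Slike against 41.4 ± 3.00 CPM in Zlike. In Slike against Zlike, 10 of 48 tested genes of the list were higher and 5 lower, so that 31.25% were called against 27.2% of all genes (median log2 0.02 against 0.00). Outside the co-repressors, the only call was 1 higher copy of ATHB-21. DESeq2 called 8 of the 48 tested genes of the list, where it called 8272 of 49526 genes in all. The edgeR calls had TPL on A09 (BnaA09G0625600ZS, log2 0.29, SE 0.05) and TPR3 on C02 (BnaC02G0500800ZS, log2 0.40, SE 0.07) among the higher ones.

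The genes whose levels followed those of D14 on C05 most closely over the 12 libraries were found among 41401 named genes by Pearson's r on log2(CPM + 1). They were SOT11 on A02 (BnaA02G0328800ZS, a sulfotransferase, r = 0.993), CIPK6 on A01 (BnaA01G0064800ZS, a protein kinase, r = 0.991), a GDSL lipase gene on A06 (BnaA06G0008600ZS, r = 0.991), SDI1 on C09 (BnaC09G0036600ZS, r = 0.990) and LACS8 on C03 (BnaC03G0473600ZS, an acyl-CoA synthetase, r = 0.989). The libraries fall into 4 groups, so r reflects mostly the high level in ZS11. SDI1, named for its response to sulfur deficiency, averaged 2.14 CPM in SX3 against 21.6 CPM in ZS11, and 4.06 CPM in Slike against 3.58 CPM in Zlike.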

How the data were processed

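Total RNA from 12 meristem samples, grouped by their titles, gave 2 kinds of values. The authors deposited whole-number read counts per gene, without normalization, and FPKM values, per the file headers; FPKM recomputed from count, length and library total differed by at most a relative 5.2e-15. Per the submitters' processing notes the tools were fastp, HISAT2 and featureCounts. Tool versions, genome build, use of strand and counting of reads that match several copies were not given in the sources used here. Values of single copies are uncertain to that extent, so sums over copies are given too. The gene IDs given here end in ZS. Whether reads of SX3 match these gene models as fully as reads of ZS11 was not tested, and sums over copies do not settle it. The deposited counts were tested with edgeR 4.0.16 (R 4.3.3), using filterByExpr by group, TMM scaling and the two-sided quasi-likelihood test, and p-values were adjusted by Benjamini-Hochberg over every gene that passed the filter. Each of the main comparisons used its own 6 libraries, and all others used 12. For sums, counts of genes with the same mustard-family protein name were added first. Alternatives were RLE and upper-quartile scaling, DESeq2 1.42.0, no filter, a replicate block, all 12 libraries in 1 fit, and leaving out each library.

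The members, lists and rules were chosen with earlier results of these data known. Every member is listed, with values where a group mean reached 1 CPM or 1 parent was silent, and each list gives the 4 copies with the smallest p per main comparison. TCP18, TCP12 and KAI2 sums were added after the values were seen. The branching list was fixed with the names PAP1, NSP1 and NSP2, but these 17 genes match phosphatases, plastid lipid-associated proteins or nitrile-specifier proteins and were left out after the files were seen. Replicate libraries were not duplicates (chi-square of 1.35 to 1.47 per gene over 12 pairs). Their spread beyond counting error was small, however. The common coefficient of variation from edgeR was 2.70% for SX3 and ZS11 and 3.05% for Slike and Zlike. Whether it holds plant-to-plant differences is not known. Intervals and floors cover counting error only.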

Additional observations from a re-analysis of the deposited data

Results flagged for a closer look

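For 6 of the 10 tested copies the change in Slike against Zlike differed from the change in SX3 against ZS11. This was the direct test on all 12 libraries (edgeR, Benjamini-Hochberg adjustment). Over all genes 53.3% were called by it, 30.1% positive and 23.2% negative, so the count of 6 lies near that background. The value is the first change minus the second on the log2 scale. It was 6.12 for D27 on A09 (BnaA09G0135300ZS, SE 0.52, adjusted p = 4.95e-21), where the SX3 level rests on 3 counts, and 1.95 for D14 on C05 (BnaC05G0554700ZS, SE 0.15, adjusted p = 1.41e-23). It was 1.56 for MAX2 on A05 (BnaA05G0033000ZS, SE 0.46, adjusted p = 0.00258), 0.48 for MAX2 BnaC04G0037300ZS (SE 0.19, adjusted p = 0.0305) and 0.39 for MAX2 on A04 (BnaA04G0271700ZS, SE 0.14, adjusted p = 0.0141). It was 1.08 for CYP711A1 on A03 (BnaA03G0239000ZS, SE 0.27, adjusted p = 0.000396), the copy that was lower in SX3 than in ZS11 and higher in Slike than in Zlike. Leaving out 1 library ended the call of BnaC04G0037300ZS in 6 of 12 fits (SX3 replicates 2 and 3, ZS11 replicates 1 and 2, Slike replicate 3 and Zlike replicate 1, adjusted p of 0.0577 to 0.109) and that of MAX2 on A04 without SX3 replicate 3 (0.0531). DESeq2 ended both calls (0.101 and 0.0561), and upper-quartile scaling that of BnaC04G0037300ZS (0.0598). With 3 libraries per group, no search for a single library standing apart was made.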

How the results depend on the processing

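The summed D27, D14 and MAX2 calls between SX3 and ZS11, and the summed CYP711A1 and MAX2 calls between Slike and Zlike, held under every alternative. Under DESeq2 4 strigolactone copies were called between SX3 and ZS11 and 1 between Slike and Zlike. Between Slike and Zlike it also called 8272 of 49526 genes in all, 1 KAI2 copy and 8 branching genes. The cause was not tested. With no filter, 5 KAI2 copies were called between SX3 and ZS11. Without 1 library, 2 to 4 strigolactone copies were called between Slike and Zlike. With upper-quartile scaling D27 on C03 was called between SX3 and ZS11 (log2 0.58, adjusted p = 0.0309) and MAX2 BnaC04G0037300ZS was not (0.0879). MAX2 BnaC04G0589200ZS in Slike against SX3, at log2 0.02, was -0.0015 with RLE scaling, -0.0113 with upper-quartile scaling and -0.0012 with DESeq2, and -0.0369 to 0.0775 without 1 library. Other signs that turned without 1 library belonged to uncalled values: CYP711A1 on C03 in SX3 against ZS11 (-0.0427 to 0.0533) and in Slike against SX3 (-0.0882 to 0.0786), D14 on C05 in Slike against Zlike (-0.0087 to 0.159), and in Zlike against ZS11 D27 on A03 (-0.224 to 0.122) and on C03 (-0.00062 to 0.164). The replicate numbers did not pair the samples (correlation of deviations -0.0106 to 0.0023 for SX3 and ZS11, -0.0176 to 0.0211 for Slike and Zlike); with the replicate block, 7 strigolactone copies were called between SX3 and ZS11 and 4 between Slike and Zlike. Alternatives chosen after seeing the data gave 35 and 18 branching calls in these comparisons with the PAP1, NSP1 and NSP2 genes kept, and 8 and 5 strigolactone calls with rice-matched genes added. With no filter, D14 on A01 was called in SX3 against ZS11, in Zlike against ZS11 (adjusted p = 0.0336) and in the contrast of the changes (0.0144). At 0 to 3 counts in all, no difference in CCD7 or CCD8 was detectable at this depth.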
